A study of Mus musculus with 5375 samples.

Results

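The cytosolic heat shock genes described here are 10 genes out of 35256 that occurred in both kinds of raw table: Hspa1a, Hspa1b, Hspa8, Hsp90aa1, Hsp90ab1, Hspb1, Hsph1, Dnajb1, Bag3 and Zfand2a. They were picked by name, as genes whose products act in one cytosolic protein folding system, with their levels in these samples already known, so the levels below are a description. For each gene the level was taken as CPM (counts-per-million, the estimated reads of the gene scaled by all reads of the library) and as the share of cells above 0, per animal, over 5 groups of tumor cells (TCs) and 3 groups of lung endothelial cells (ECs).

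All animals were wild-type (WT) adult female BALB/c mice. The TCs were 4T1-GFP cells, a single BALB/c breast cancer line with a green fluorescent protein, labeled with CellTrace, a dye diluted at each division, and injected into the tail vein. ECs came from uninjected mice (day 0) and from mice 1.5 and 3.5 days after injection. On day 1.5 a fluorescent antibody given into the circulation marked TCs as intravascular, and unmarked TCs were sorted as extravascular. On day 3.5 the latent gate took TCs in which the dye was retained and the proliferative gate TCs in which it was diluted, and cultured cells served as the uninjected TC sample. Each sorted cell was sequenced on its own, and the reads of the 1566 kept TCs and 2479 kept ECs were summed to 24 libraries from 12 mice and the culture. The intravascular, extravascular and latent gates gave 4 libraries each and EC days 0, 1.5 and 3.5 gave 4, 3 and 3. The culture (369 cells) was 1 pool with no replicate. For the proliferative gate (237 cells) the sources disagree: the sample labels and the methods give 4 replicates, whereas the deposited annotation names 1 mouse for all cells and the columns could not be matched to the labels, so these cells were handled as 1 pool and may come from 1 mouse or from 4. The same 4 mice supplied the intravascular and the extravascular TCs. By the annotation, 3 of them also gave the day 1.5 ECs, and the mice of latent libraries 1 to 3 gave the day 3.5 ECs. Latent and proliferative TCs also share animals: the annotation gives the proliferative cells to the mouse of latent library 4, and the methods call the fractions matched. EC libraries held 75.6 to 129.5 M reads with a median of 1951 to 2974 detected genes per cell, and TC libraries 31.9 to 163.5 M reads with 5721 to 7145 genes, so a share of cells above 0 cannot be compared between ECs and TCs without that difference in mind. Summed CPM of 8 epithelial tumor cell markers lay between 2774 and 6373 in TC libraries and between 3.34 and 21.6 in EC libraries, and that of 8 endothelial markers between 14188 and 26167 in EC libraries and between 20.9 and 61.6 in TC libraries. Transcripts of 6 alveolar and airway epithelial markers were present in EC libraries, at 648 to 1176 summed CPM against 0.478 to 51.7 in TC libraries, and their part in the EC values was not tested. In sums over cells, fewer expressing cells and less RNA per cell cannot be told apart from the CPM alone.

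Heat shock proteins of the cytosol bind unfolded or newly made proteins and help them to fold, to be held soluble or to be degraded. Hsp70 proteins are given their clients by J-domain partners, are reset by exchange factors, and pass some clients to Hsp90. In stressed cells the factor HSF1 binds repeated nGAAn units in front of many of these genes and raises their transcription, whereas a constitutive set is made in every cell. Hspa8 and Hsp90ab1 belong to the constitutive set. Hspa1a and Hspa1b encode the stress-inducible Hsp70, and Hsp90aa1 the more inducible Hsp90. Tissue dissociation and cell sorting are known to raise stress genes by themselves. The lungs were digested at body temperature before sorting. The part of dissociation in the values below was not tested.

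Promoter windows were read from RefSeq (GRCm38.p6) for 7 of the 10 genes, namely Hspa1a, Hspa1b, Hspb1, Hsph1, Dnajb1, Bag3 and Zfand2a. No window was matched for Hspa8, Hsp90aa1 and Hsp90ab1. The 250 bases before each start were searched for GAANNTTC and for TTCNNGAA, the 2 ways in which neighboring units of a heat shock element can face each other. Each of these motifs is its own reverse complement, so both strands are covered. Hspa1a, Hspa1b, Hspb1, Hsph1 and Zfand2a held at least 1 such pair, which is 5 of the 7 genes. Over all 32851 promoter windows 6.69% held GAANNTTC, 7.17% held TTCNNGAA and 12.8% held either. The windows of 4 genes are shown because their levels set them apart: Hspa1a and Hspa1b for their near-identity, Hspb1 for its levels in ECs and TCs, and Zfand2a for the difference between TC gates. Capitals mark the pairs, and each window is written 5′ to 3′ on the strand of the gene. The first 3 windows are the 120 bases that end just before the start, and that of Zfand2a runs from 250 to 131 bases before it. None of the 4 overlapped an exon in the GENCODE annotation.
Hspa1a (chr17:34972157-34972276, minus strand): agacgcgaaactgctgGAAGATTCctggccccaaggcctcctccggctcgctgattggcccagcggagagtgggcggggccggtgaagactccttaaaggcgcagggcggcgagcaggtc
Hspa1b (chr17:34959239-34959358, minus strand): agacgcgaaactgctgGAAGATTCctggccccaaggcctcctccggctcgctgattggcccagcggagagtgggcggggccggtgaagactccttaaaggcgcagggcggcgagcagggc
Hspb1 (chr5:135887799-135887918, plus strand): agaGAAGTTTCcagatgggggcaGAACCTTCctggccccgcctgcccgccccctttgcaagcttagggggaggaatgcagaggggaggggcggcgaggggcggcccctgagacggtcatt
Zfand2a (chr5:139484622-139484741, minus strand): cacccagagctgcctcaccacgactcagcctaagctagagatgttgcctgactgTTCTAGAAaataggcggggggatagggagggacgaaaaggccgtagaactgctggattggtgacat
The windows of Hspa1a and Hspa1b were identical at 119 of 120 bases, and in both the pair began 104 bases before the start. Hspb1 held pairs that began 117 and 97 bases before its start, and the pair of Zfand2a began 196 bases before.

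**Figure D1:**
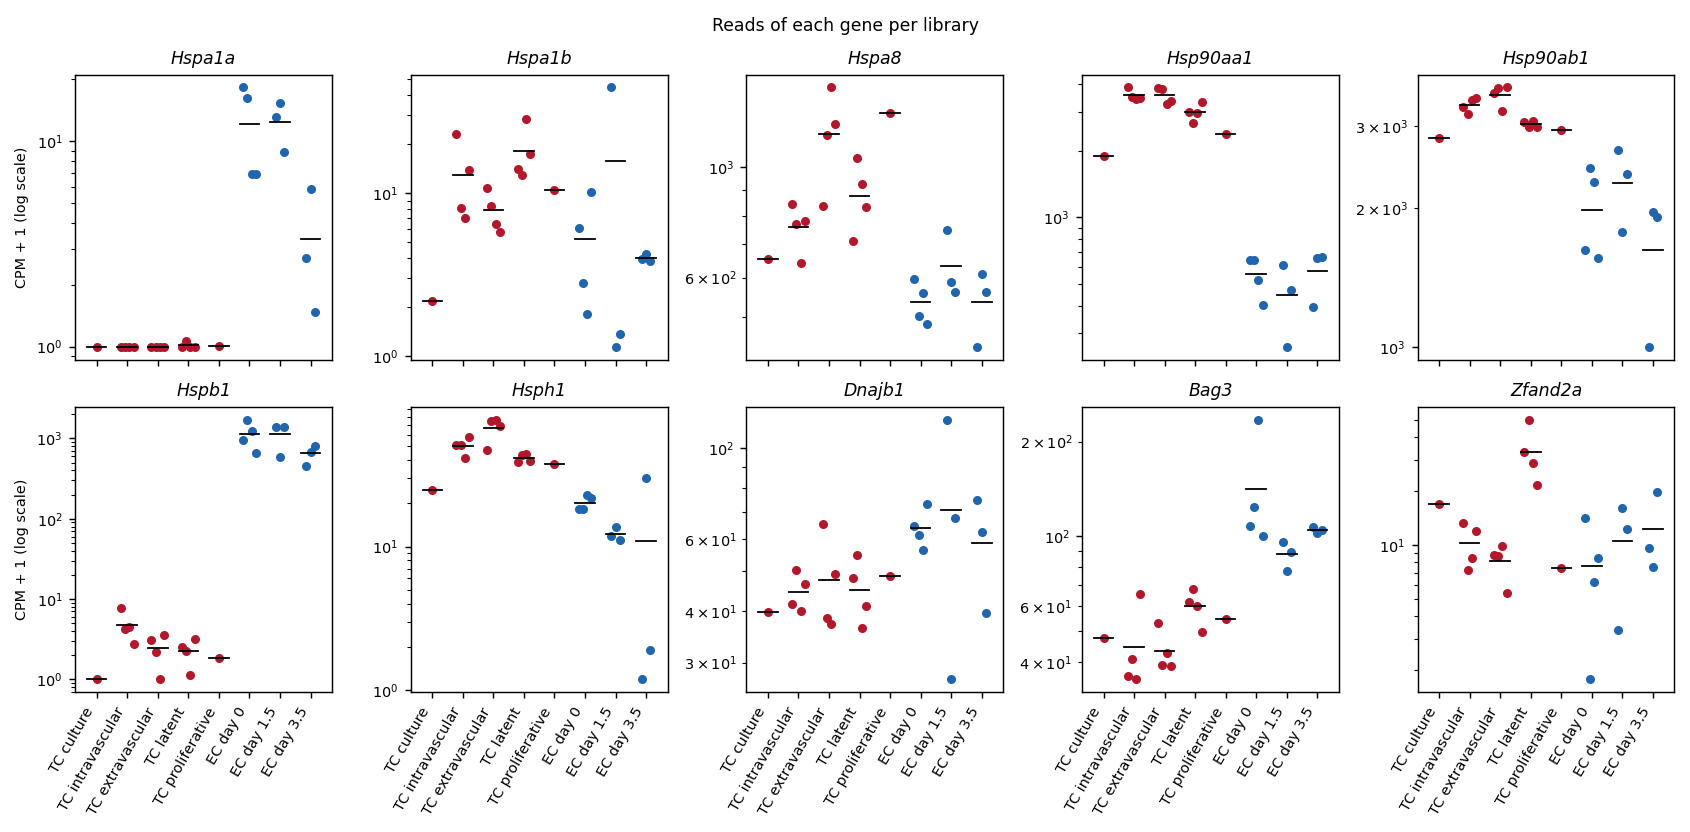
Level of each of the 10 genes in every library, as CPM + 1 on a log axis whose range differs between panels. Each point is 1 library (red TCs, blue ECs) and each bar is the group mean. Hspa1a lies at or near 0 in TCs and between 0.477 and 17.3 CPM in ECs, Hspb1 between 0 and 6.64 CPM in TCs and between 457 and 1688 CPM in ECs, and the latent libraries of Zfand2a lie above all other TC libraries.

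The Hsp70 genes came first in the description. Hspa8 encodes the constitutive Hsp70 (chr9:40800984-40810087, plus strand). It was above 0 in 1559 of 1566 TCs and in 1911 of 2479 ECs. Its level was 654 CPM in culture, 841, 767, 642 and 778 CPM in intravascular libraries 1 to 4, and 835, 1158, 1445 and 1220 CPM in extravascular libraries 1 to 4. In all, 3 of the extravascular libraries lay above every intravascular library and the remaining one overlapped them. Latent libraries held 709, 1042, 923 and 831 CPM and the proliferative pool 1284 CPM. ECs held less of it, with 596, 501, 558 and 483 CPM on day 0, 746, 588 and 560 CPM on day 1.5 and 435, 610 and 561 CPM on day 3.5. Each neighboring pair of groups in the order of Hspa8 means, from proliferative TCs at the top to day 0 ECs, had overlapping libraries.

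Hspa1a (chr17:34969190-34972156, minus strand) and Hspa1b (chr17:34956436-34959238, minus strand) are neighboring, nearly identical genes. Of the distinct 50-base windows of Hspa1a transcripts 58.8% also occurred in Hspa1b, and 62.3% the other way around, so the division of reads between the pair rests on the estimate made by the authors' quantification. Hspa1a was listed at 0 in the culture and in all intravascular and extravascular libraries, and it was above 0 in 2 of 1566 TCs. In latent library 2 it stood at 0.0713 CPM from 1 cell. Hspa1b was found in every TC library. Its level was 1.17 CPM in culture, 22.0, 7.17, 6.04 and 12.9 CPM in intravascular, 9.79, 7.31, 5.47 and 4.80 CPM in extravascular and 13, 12, 27.7 and 16.3 CPM in latent libraries, and 9.54 CPM in the proliferative pool. All 13 libraries from lungs were thus above the culture, by 5.82-fold in the extravascular mean and by 14.7-fold in the latent mean. The same held for Hsp90aa1, Hsp90ab1 and Hsph1, so for 4 of the 9 genes tested in TCs, beside 9.31% of all genes tested. Differences from the culture pool were not tested. In culture 4.88% of cells were above 0, against 23.2% to 43.8% in the libraries from lungs. The culture was read less deeply, with a median of 253686 reads per cell against 459916 to 718192 in lung TC libraries. The part of depth in these shares was not tested.

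In ECs both genes of the pair were seen in few cells. Hspa1a was above 0 in 98 and Hspa1b in 88 of 2479 ECs. The levels of Hspa1a were 17.3, 15.3, 5.91 and 5.92 CPM on day 0, 12.1, 14.3 and 7.85 CPM on day 1.5 and 1.69, 4.85 and 0.477 CPM on day 3.5. Those of Hspa1b ran from 0.146 to 43.5 CPM, both extremes being day 1.5 libraries. A single cell held between 29.6% and 98.3% of the Hspa1a reads of an EC library, and between 30.3% and 99.6% of its Hspa1b reads. The library levels of the pair in ECs are thus set by a few cells.

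The Hsp90 genes were the most abundant of the 10 in TCs. Hsp90aa1 (chr12:110690605-110702728, minus strand) and Hsp90ab1 (chr17:45567775-45573271, minus strand) were above 0 in all 1566 TCs. Hsp90aa1 stood at 1898 CPM in culture, 3857, 3486, 3432 and 3452 CPM in intravascular, 3857, 3799, 3250 and 3342 CPM in extravascular and 2988, 2665, 2968 and 3309 CPM in latent libraries, and at 2388 CPM in the proliferative pool. All lung libraries were above the culture, and the proliferative pool was the lowest of them. Hsp90ab1 held 2838 CPM in culture, 3299, 3192, 3428 and 3454 CPM in intravascular, 3544, 3624, 3238 and 3642 CPM in extravascular and 3069, 2998, 3080 and 2985 CPM in latent libraries, and 2945 CPM in the proliferative pool. Every latent library was below every intravascular and extravascular library. How many of all genes show this order was not counted. Between the latent and extravascular gates alone, 16.7% of all genes had no overlap, in either direction. The coefficient of variation of Hsp90ab1 was 1.59% over the latent libraries, 3.64% over the intravascular and 5.34% over the extravascular.

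In ECs Hsp90ab1 ranged from 1001 to 2662 CPM and Hsp90aa1 from 260 to 664 CPM. Per kilobase of exon, which allows genes to be compared, the mean level of Hsp90aa1 was 906 CPM per kb in extravascular TCs and 140 CPM per kb in day 0 ECs. The same measure for Hsp90ab1 was 1171 and 658 CPM per kb. The order of the Hsp90 pair was therefore the same in both kinds of cell, with a wider gap between the genes in ECs.

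Hspb1 (chr5:135887919-135889563, plus strand), which encodes a small heat shock protein that holds unfolded clients soluble, was abundant in ECs and near 0 in TCs. EC libraries held 952, 1688, 1224 and 653 CPM on day 0, 1386, 587 and 1395 CPM on day 1.5 and 457, 682 and 811 CPM on day 3.5. TC libraries from lungs held 0 to 6.64 CPM, and Hspb1 was above 0 in 33 of 1566 TCs against 1428 of 2479 ECs. In culture it was listed at 0, where 3 reads would have given 0.0326 CPM, and 0 of 369 cells allows a share of up to 0.813% for counting error alone. Per kilobase of exon Hspb1 was the highest of the 10 genes in day 0 ECs, at 1095 CPM per kb. ECs and TCs were amplified with different numbers of PCR cycles and fitted apart, so the gap was not tested.

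Hsph1, Dnajb1 and Bag3 encode partners of Hsp70: an Hsp110-type exchange factor, a J-domain protein and a BAG-domain exchange factor that links Hsp70 to small heat shock proteins. Hsph1 (chr5:149614287-149636376, minus strand) stood at 23.8 CPM in culture, at 49.5, 49.7, 40.1 and 56.6 CPM in intravascular, 46.0, 73.6, 74.6 and 67.5 CPM in extravascular and 37.5, 42.4, 43.2 and 38.1 CPM in latent libraries, and at 36.2 CPM in the proliferative pool. Every latent library was below every extravascular library. In either direction, 16.7% of all genes had no overlap between these gates. Dnajb1 (chr8:83608193-83612653, plus strand) ranged from 35.4 to 64.2 CPM over all TC libraries, with overlapping gates. Bag3 (chr7:128523616-128546981, plus strand) held 51.9, 38.1, 41.6 and 37.8 CPM in extravascular and 61.1, 67.1, 58.9 and 48.7 CPM in latent libraries, which overlapped. In ECs the level of Bag3 was 76.7 to 233 CPM, against 34.2 to 67.1 CPM in TCs with no test, whereas Hsph1 was above 0 in 96 of 2479 cells.

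Zfand2a (chr5:139471211-139484549, minus strand) encodes a zinc finger protein of the AN1 type that is induced by arsenite and associates with the proteasome. Its level was 16 CPM in culture, 12.2, 6.25, 7.43 and 11 CPM in intravascular, 7.81, 7.66, 8.95 and 4.39 CPM in extravascular and 31.9, 48.9, 27.7 and 20.6 CPM in latent libraries, and 6.46 CPM in the proliferative pool. All 4 latent libraries were above every other TC library, the culture included. The culture was in turn above every intravascular, extravascular and proliferative library. How many of all genes show either order was not counted. Between the latent and extravascular gates alone, 16.7% of all genes had no overlap, in either direction. Latent libraries lay above the proliferative pool for 19.2% of all genes. The share of cells above 0 was 44.3% ± 4.4 (SD, n = 4) in latent and 27.5% ± 5.88 (SD, n = 4) in extravascular libraries, and in the cells above 0 the mean level was 72.0 CPM in latent and 25.6 CPM in extravascular libraries. In the culture 43.6% of cells were above 0, inside the latent range, with a mean of 34.3 CPM in those cells. Both the share of cells and the level per positive cell were thus higher in latent than in extravascular TCs, and the latent TCs also had more detected genes per cell (6555 to 6870 against 5721 to 6081).

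**Figure D2:**
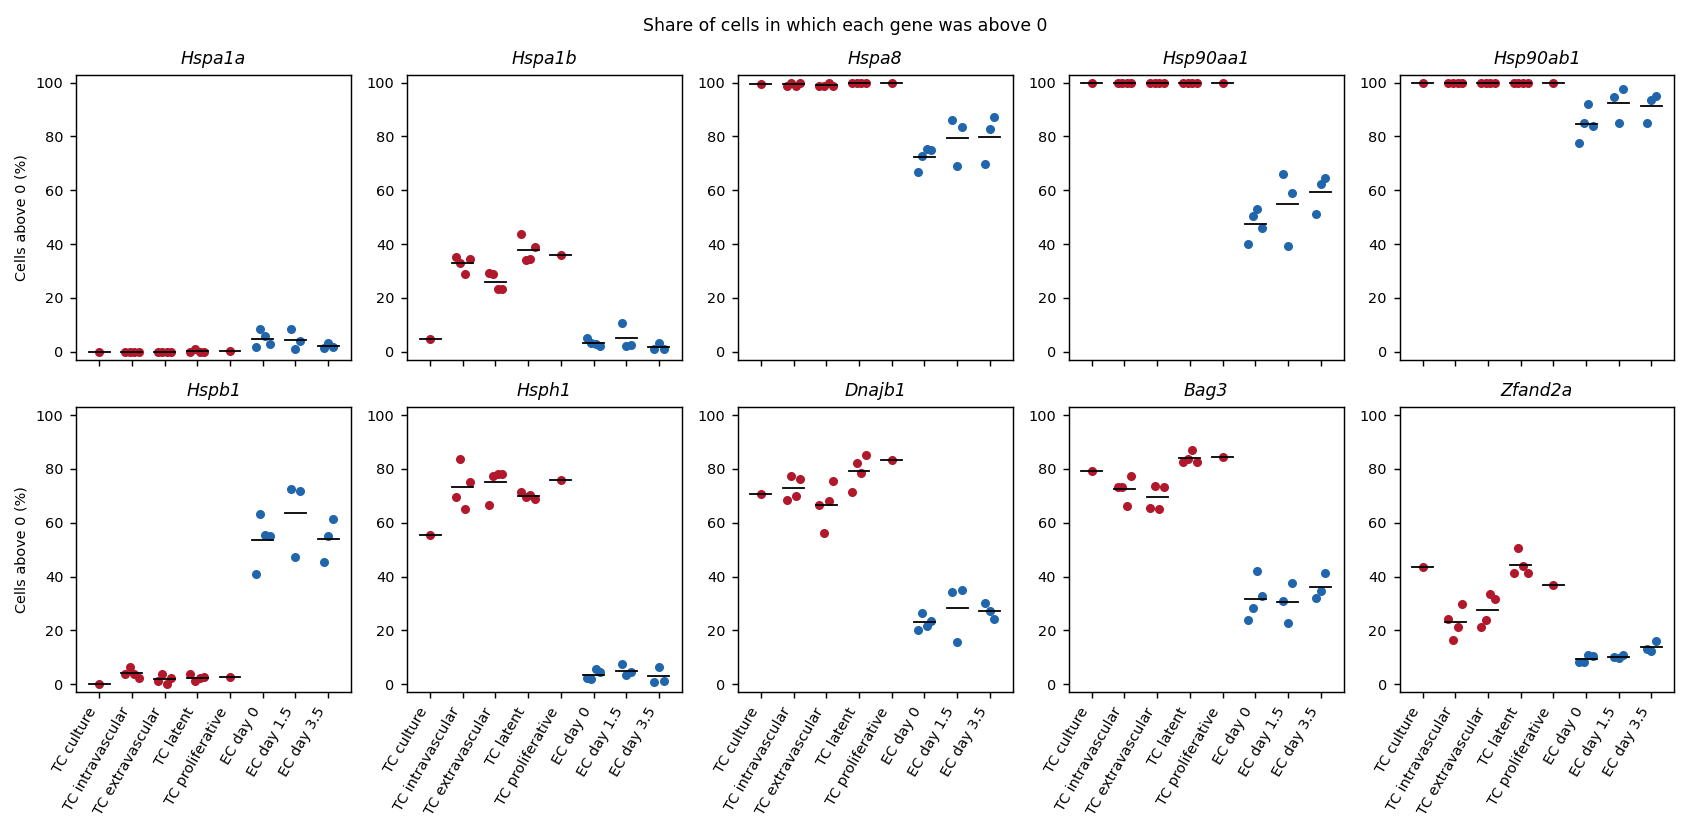
Share of kept cells above 0 for each gene (%, linear axis from 0 to 100), 1 point per library (red TCs, blue ECs) with the group mean as a bar. Hsp90aa1, Hsp90ab1 and Hspa8 were above 0 in nearly all TCs, Hspa1a in almost none, and Zfand2a in 41.3% to 50.6% of latent TCs against 16.5% to 36.7% in the other gates from lungs and 43.6% in culture.

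Hspa8, Hsp90aa1 and Hspb1 have processed pseudogenes that carry much of their sequence, and the reads given to these copies were large enough to bear on the levels. Gm15459 (chr5:5781615-5783555, minus strand) shares 34.6% of the 50-base windows of Hspa8, Gm12346 (chr11:77293444-77295898, plus strand) 41.8% of those of Hsp90aa1, and Hsp25-ps1 (chr13:45078498-45079127, minus strand) 48.8% of those of Hspb1. Gm15459 was given 227, 288, 207 and 133 CPM in intravascular, 331, 678, 977 and 788 CPM in extravascular and 310, 728, 540 and 570 CPM in latent libraries, and 1086 CPM in the proliferative pool. Every extravascular library was above every intravascular library, as was the case for 5.29% of all genes. The sum of Hspa8 and Gm15459 was 849 to 1068 CPM in intravascular and 1165 to 2423 CPM in extravascular libraries, with no overlap, whereas Hspa8 alone overlapped. Gm12346 was given 157 to 300 CPM in TC libraries, a small part of the Hsp90aa1 level, and Hsp25-ps1 147 to 598 CPM in EC libraries. How the reads divide between Hspa8 and Gm15459 is uncertain. By contrast, Hsph1 and Bag3 shared 0 windows with other genes, and Dnajb1 and Zfand2a 0.412% and 0.406% of theirs.

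**Figure D3:**
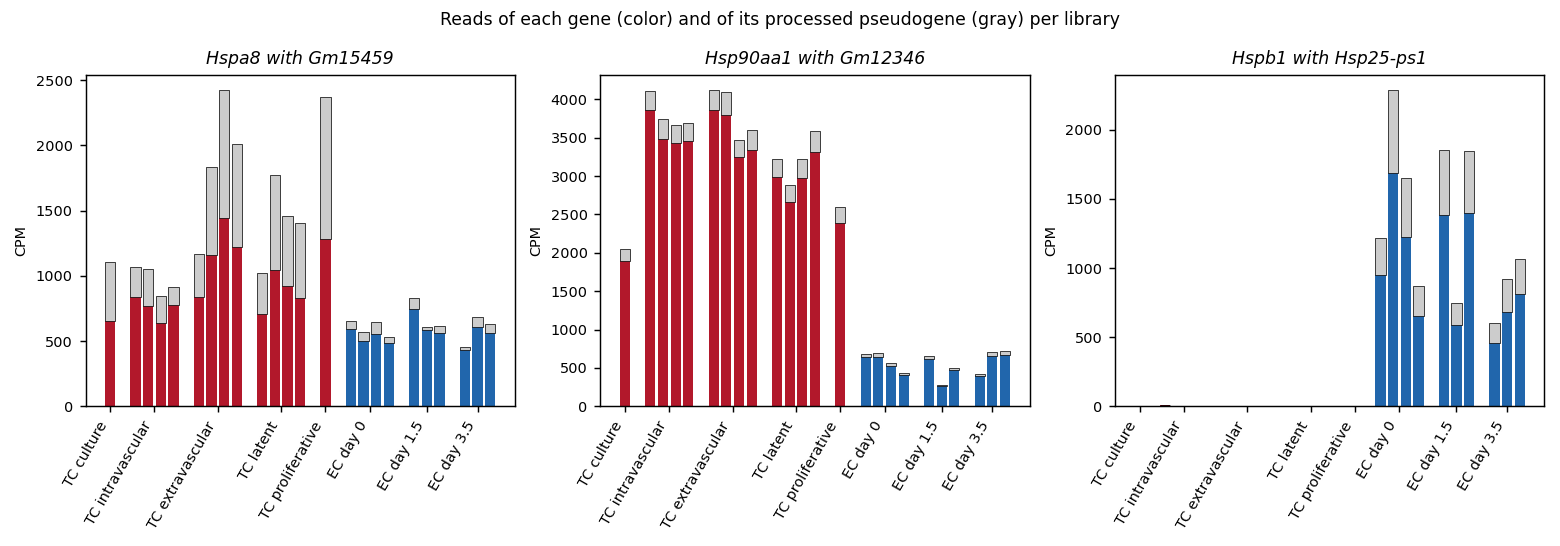
CPM of Hspa8, Hsp90aa1 and Hspb1 in each library (colored bars from 0, red TCs, blue ECs) with the CPM of the processed pseudogene stacked on top in gray. The stacked bars of Hspa8 with Gm15459 reach 1165 to 2423 CPM in extravascular and 849 to 1068 CPM in intravascular libraries.

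To ask how the genes differed between TC gates, edgeR's quasi-likelihood test was fitted to all 19249 genes that passed a filter on low counts, with Benjamini-Hochberg adjustment over all of them. Hspa1a did not pass the filter, so 9 of the 10 genes were tested. Fold changes carry a scaling factor per library, which moved the latent against extravascular values by -0.14 and the proliferative against extravascular values by -0.12 on the log2 scale relative to CPM. The gate was sequenced by lane, so gate and lane cannot be told apart. Latent and proliferative TCs were taken on day 3.5 and extravascular TCs on day 1.5, from different mice. In comparisons between these, gate, day and mouse cannot be told apart either. The day 3.5 gates took no account of whether a cell lay inside or outside the vessels.

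Between latent and extravascular TCs 1 of the 9 genes was called higher and 4 lower at an adjusted p under 0.05, beside 3.60% and 4.97% of all genes. Zfand2a rose by 2.01 ± 0.31 (log2 fold change ± SE, adjusted p = 0.0012, higher in 4 of 4 latent libraries than in any extravascular one). Hsph1 fell by 0.84 ± 0.16 (adjusted p = 0.0053) and Hsp90ab1 by 0.35 ± 0.06 (adjusted p = 0.0018), and in both all latent libraries lay below all extravascular ones. Hsp90aa1 fell by 0.39 ± 0.09 (adjusted p = 0.017), with 1 overlapping library. Hspa8 was at -0.55 ± 0.14 with an adjusted p of 0.031, but that call was lost without scaling factors (adjusted p = 0.12), with Gm15459 added (adjusted p = 0.103) and when any of 6 of the 8 libraries was left out, which were extravascular libraries 2, 3 and 4 and latent libraries 1, 3 and 4 (adjusted p from 0.0581 to 0.0929 for those that lost it). The other 4 were not called: Hspa1b at 1.2 ± 0.42 (adjusted p = 0.100), Bag3 at 0.34 ± 0.19 (adjusted p = 0.315), Dnajb1 at -0.22 ± 0.19 (adjusted p = 0.53) and Hspb1 at -0.31 ± 0.96 (adjusted p = 0.89). Of these, Hspb1 was called by no alternative, whereas Hspa1b passed with DESeq2 (1.21, adjusted p = 0.025) and with limma on mean log10 values (0.88, adjusted p = 0.015). With limma Bag3 (1.34, adjusted p = 0.0010) and Dnajb1, with its sign turned (0.87, adjusted p = 0.039), passed too. The libraries of 4 of the 9 genes did not overlap between the gates, 2 in each direction, as was the case for 16.7% of all genes. Among the called genes, the Hsp90 genes and the Hsp110-type Hsph1 were lower in latent TCs, and Zfand2a was higher. As the genes were picked with these levels known, the p-values describe the fit and are no independent evidence.

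Mitochondrial share and markers of other cells moved with this comparison. The median mitochondrial share of reads per cell was 1.48% to 1.94% in latent and 2.23% to 3.16% in extravascular libraries, with no overlap. With kept cells over 5% left out, the 5 calls stayed. Summed CPM of 10 immune markers was 2.47 to 11.3 in extravascular and 282, 5.32, 4.53 and 214 in latent libraries 1 to 4, with 2 to 5 and 4 to 9 of the markers above 0. That of 8 endothelial markers was 20.9 to 29.2 in extravascular and 24.2 to 61.6 in latent libraries, with 4 to 6 and 6 to 8 of them above 0. The sort left out cells stained for CD45, the surface protein encoded by the immune marker Ptprc. The part of marker-bearing cells in the values above was not tested.

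Between extravascular and intravascular TCs, which came from the same mice, 0 of 9 genes were called, beside 0.951% of all genes. By unadjusted p under 0.05, 2 of the 9 passed, beside 17.6% of all genes. Hspa8 was at 0.55 ± 0.14 (adjusted p = 0.082) and higher in the extravascular library of 3 of 4 mice, and Hsph1 at 0.34 ± 0.16 (adjusted p = 0.284), likewise in 3 of 4. Hspa8 passed with DESeq2 (adjusted p = 0.0138), with the top cell of each gene left out (0.51, adjusted p = 0.048) and without extravascular library 1 (0.68, adjusted p = 0.0149), and was at 0.11 with limma (adjusted p = 0.739). With Gm15459 added, edgeR gave 0.86 ± 0.19 (adjusted p = 0.0519). With the mouse as a block the value for Hspa8 was 0.52 ± 0.16 (adjusted p = 0.218), and the count over all genes went from 183 to 1. That fit estimates a level for each mouse from the same 13 libraries, which leaves less to estimate the spread from.

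Between the proliferative pool and extravascular TCs 0 of 9 genes were called, beside 0.696% of all genes. The pool has no replicate, and its spread was assumed to be like that of the other gates. Hsp90aa1 was at -0.70 ± 0.15 (adjusted p = 0.057), Hsp90ab1 at -0.38 ± 0.09 (adjusted p = 0.090) and Hsph1 at -0.98 ± 0.27 (adjusted p = 0.143), and all 3 passed with DESeq2, with adjusted p of 0.00725, 0.049 and 0.00692. With the top cell of each gene left out Hsp90aa1 (-0.87, adjusted p = 0.0102) and Hsp90ab1 (-0.56, adjusted p = 0.0126) passed, and Hsp90aa1 also with all sequenced cells (adjusted p = 0.0426) and with limma (adjusted p = 0.013). Hsph1 passed without extravascular library 1 (-1.12, adjusted p = 0.0434) and was at -0.56 with limma (adjusted p = 0.572). The comparison shares its extravascular libraries with the one above. Between latent TCs and the pool 0 of 19249 genes were called by edgeR (0%), whereas 977 passed at an unadjusted p under 0.05 and 89 were called by DESeq2. Zfand2a was at 2.29 ± 0.55 there (adjusted p = 0.67), with all 4 latent libraries above the pool (19.2% of all genes), and Hspa8 at -0.57 ± 0.22 (adjusted p = 0.92). With the mouse as a block Zfand2a was at 1.71. That block takes the pool to come from the mouse of latent library 4, as the disputed annotation gives it.

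**Figure D4:**
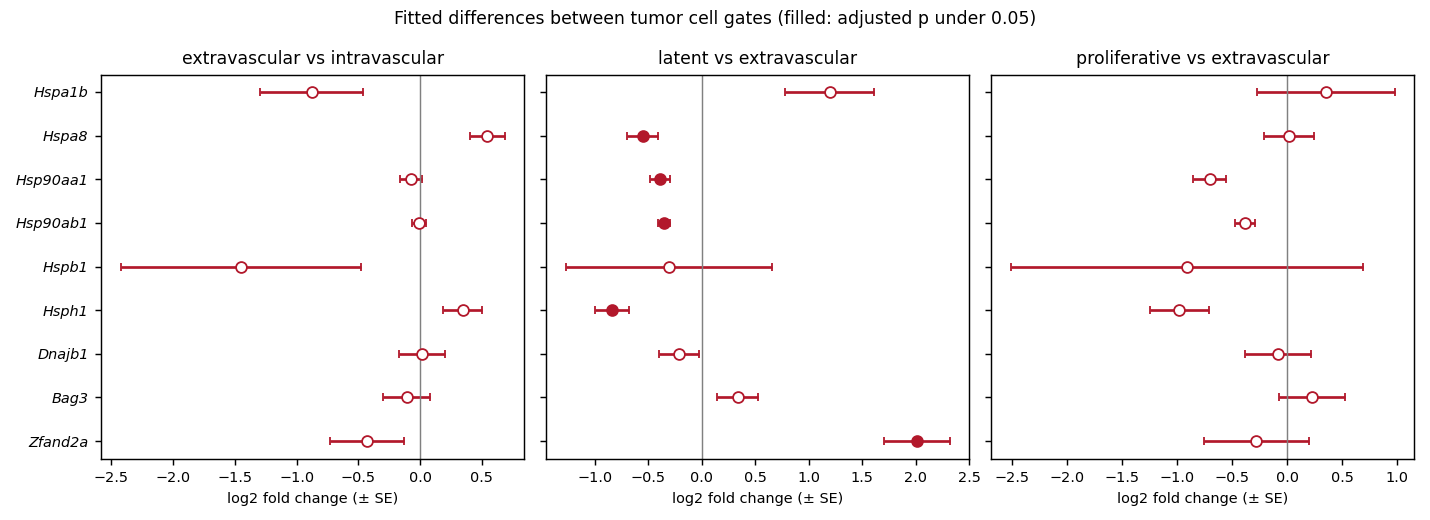
Fitted log2 fold changes of the 9 tested genes between TC gates, with 1 SE on each side, on axes whose range differs between panels (filled points: adjusted p under 0.05). Filled points occur only in latent against extravascular TCs, where Zfand2a lies at 2.01 and Hsph1, Hspa8, Hsp90aa1 and Hsp90ab1 lie below 0.

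In ECs all 10 genes were tested among 17585 genes. With edgeR 0 of 17585 genes (0%) were called on day 1.5 against day 0, on day 3.5 against day 0 and on day 3.5 against day 1.5, whereas 1422, 1541 and 798 genes had an unadjusted p under 0.05 and 360, 475 and 124 were called by DESeq2. At an unadjusted p under 0.05 stood Bag3 on day 1.5 against day 0 (8.09% of all genes), and Hspa1a and Hspb1 on day 3.5 against day 0 (8.76%). Bag3 held 107, 123, 233 and 99.4 CPM on day 0 and 95.2, 76.7 and 88.2 CPM on day 1.5, where all 3 libraries were below all 4 of day 0, as for 2.78% of all genes (-0.75 ± 0.31, adjusted p = 0.589). Hsph1 had no overlap in the same direction, with 10.2 to 12.6 CPM on day 1.5 against 17.2 to 21.7 CPM on day 0, from 4 to 23 cells a library. On day 3.5 Bag3 held 106, 102 and 104 CPM, all above day 1.5, as for 4.70% of all genes. Hspb1 was at -0.86 ± 0.37 on day 3.5 (adjusted p = 0.557) and Hspa1a at -2.31 ± 0.88 (adjusted p = 0.498), with all 3 libraries below all 4 of day 0, as for 3.00% of all genes. Day 0 mice were sorted in 2 sessions, and against the day 0 mice of the same session the values were -0.46 ± 0.33 for Bag3, -0.56 ± 0.35 for Hspb1 and -1.37 ± 1.15 for Hspa1a. With limma on mean log10 values they shrank to -0.03, -0.09 and -0.18. Without day 0 library 3 Bag3 was at -0.39, and leaving out 1 library moved Hspa1a between -3.38 and -1.82 and Hspb1 between -1.05 and -0.59. On day 3.5 against day 1.5, which differ in sort session, Hspa1a was the single gene of the 10 at an unadjusted p under 0.05 (-2.30 ± 0.91, adjusted p = 1), beside 4.54% of all genes. Its libraries did not overlap between these days, as for 4.99% of all genes in that direction.

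Within a library the genes were spread over cells to very different degrees. The cell with most reads held 0.803% to 5.77% of the Hsp90ab1 reads of a TC library and 1.84% to 14.2% of those of an EC library. For Zfand2a these shares were 4.01% to 75.1% in TCs, and in the latent libraries 15.4%, 10.1%, 27.6% and 27.7%. The latent level of Zfand2a was therefore not that of a single cell, and with the top cell of each gene left out its change kept its direction and its call. Over the cells of a library, log2(CPM + 1) of pairs of the genes correlated weakly: the median Pearson r of 28 pairs in TCs ran from -0.04 to 0.32 with a median of 0.14, and that of 15 pairs in ECs from 0.02 to 0.23 with a median of 0.10. The highest in TCs was between Hspa8 and Hsp90ab1. Those values share depth: Hspa8 itself correlated with the number of detected genes at a median r of 0.33 in TCs.

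Genes of the wider folding system were taken from lists that do not hold the 10 genes. Between latent and extravascular TCs 7 of 15 chaperones of the endoplasmic reticulum fell and 0 rose, beside 4.97% and 3.60% of all genes, with a list median of -0.56 beside 0.03 over all genes. Hspa5, the Hsp70 of that compartment, fell by 0.82 ± 0.11 (adjusted p = 0.00036), its Hsp90, Hsp90b1, by 0.74 ± 0.10, the disulfide isomerase Pdia3 by 0.61 ± 0.09 and Manf by 0.68 ± 0.11. Of 29 other cytosolic chaperones and co-chaperones 7 fell and 3 rose (list median -0.06), beside the same shares of all genes. St13, which links Hsp70 and Hsp90, fell by 1.03 ± 0.13 (adjusted p = 0.00023), the J-domain protein Dnaja1 by 0.75 ± 0.11 and Cacybp by 0.70 ± 0.10, while the small heat shock protein Hspb6 rose by 1.57 ± 0.25 (adjusted p = 0.0017). Of 9 mitochondrial chaperones and proteases 2 fell and 1 rose, again beside 4.97% and 3.60%. They were Hspe1 (-1.25 ± 0.10) and Hspd1 (-1.14 ± 0.10), which form the mitochondrial chaperonin, and the protease Lonp1 (1.15 ± 0.25). None of 7 tested subunits of TRiC, the cytosolic chaperonin, were called, with 3 at a lower value and an unadjusted p under 0.05.

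Immediate early genes, which respond within minutes to stimulation and to handling, formed the next list. Of 14 such genes 7 rose in latent against extravascular TCs and 0 fell, beside 3.60% and 4.97% of all genes (list median 0.81 beside 0.03). Fos rose by 1.90 ± 0.23 (adjusted p = 0.00023), Nr4a1 by 2.05 ± 0.37, Dusp1 by 1.79 ± 0.30 and Klf6 by 1.08 ± 0.11. The 15 called genes named from these lists for latent against extravascular TCs kept their call and direction under all 10 alternatives and with each library left out. Other called genes that the counts include did not: of the 8 fits that left out a library, Atf3 and Btg2 were called in 1 each, Calr and Dnaja2 in 3, Cryab and Ptges3 in 4 and Hspa4 in 5, and Dnaja2 turned to 0.65 with limma. Canx, Chordc1 and Dnajb11 held with each library left out but were called in 9 of the 10 alternatives, and Canx shrank to -0.10. These exceptions are named after their values were seen. In the proliferative pool against extravascular TCs, which rests on 1 library in that arm, Fos was at 1.65 ± 0.32 (adjusted p = 0.036), Dusp1 at 2.05 ± 0.41 (adjusted p = 0.040) and Hspe1 at -0.91 ± 0.16 (adjusted p = 0.028). Without extravascular library 4 none of these 3 passed (adjusted p = 0.0752, 0.0928 and 0.0703), and the count over all genes went from 134 to 6. Fos was also lost without extravascular library 2, and Dusp1 without library 2 or 3. Between extravascular and intravascular TCs 1 of 29 other cytosolic chaperones, 2 of 7 TRiC subunits and 1 of 15 endoplasmic reticulum chaperones were called higher in extravascular TCs. Of all genes 0.416% were called higher. The calls were Hspb8 (0.72 ± 0.15), the TRiC subunits Cct3 (0.83 ± 0.17) and Cct4 (0.60 ± 0.11) and Dnajb11 of the endoplasmic reticulum (0.86 ± 0.16). With the mouse as a block all 4 calls were lost (adjusted p = 0.17, 0.0842, 0.144 and 0.12, in the same order). Hspb8 kept its call without extravascular library 1 or 2, and each of the other 3 kept it in 1 of the 8 fits that left out a library, the one without extravascular library 1. With limma Hspb8 (-0.23) and Cct4 (-0.22) turned. Of the heat shock factors 4 of 6 were tested and none were called in any comparison. Hsf1 held a mean of 11.7 CPM in intravascular, 15.9 CPM in extravascular and 16.9 CPM in latent libraries, and its difference between latent and extravascular TCs was -0.05 ± 0.24 (adjusted p = 0.93). That of Hsf2 was -0.64 ± 0.26 (adjusted p = 0.16).

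**Figure D5:**
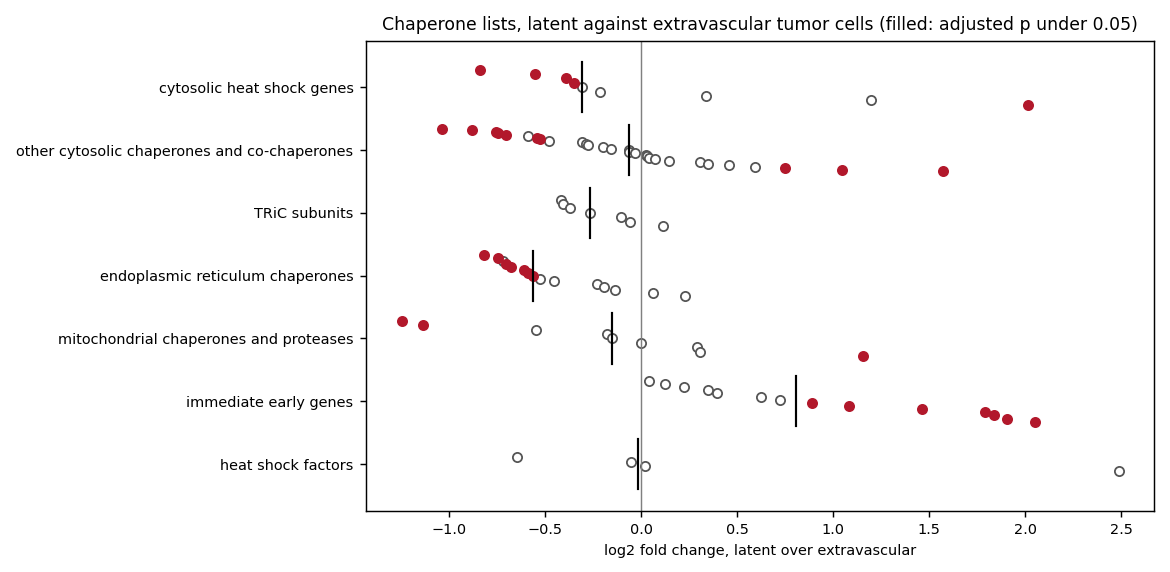
Log2 fold changes, latent over extravascular TCs, of the 9 tested cytosolic heat shock genes and of 6 other lists, 1 point per gene (filled: adjusted p under 0.05) with the list median as a bar. Chaperones of the endoplasmic reticulum lie mostly below 0, immediate early genes above 0, and the cytosolic heat shock genes on both sides.

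The genes outside the list whose levels followed the mean of the tested heat shock genes most closely over the 13 lung TC libraries were Nupr1, a stress-induced nuclear protein (r = 0.94), Ankrd11 (0.90), Ndrg1, a gene raised by low oxygen (0.87), Kmt2a (0.87) and Spag1 (0.86). Over the 10 EC libraries they were Sec16a (0.96), Gm47441 (0.94), Zdhhc3 (0.93), Amy2a3 (0.91) and Abraxas2 (0.90). Before averaging, each heat shock gene was centered on its mean, so genes that vary widely between libraries weigh most. Over the lung TC libraries Zfand2a ran from 4.39 to 48.9 CPM and Hsp90ab1 from 2945 to 3642 CPM. The r thus describe that mean and not each heat shock gene. Amy2a3 had a mean of 0.787 CPM. These r are across libraries that also differ by gate or day, and they are the extremes over all genes.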

How the data were processed

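Each cell was sequenced by a modified SMART-Seq2 protocol, single-end and without molecular identifiers. The authors deposited raw tables of estimated counts per gene and cell, made with Salmon 0.7.2 on GRCm38 per the labels, with the annotation release not given in the sources used here. They also deposited filtered tables of log10 values scaled to housekeeping genes, used for the kept cells and in 1 alternative, and an annotation of animal, sort day and gate. Estimated counts of kept cells were summed per group and mouse and rounded, which gave 10 EC and 13 lung TC libraries, plus 1 culture pool outside all tests. The labels and the methods give 4 proliferative replicates, but the annotation names 1 mouse for all proliferative cells, so a fit with 4 replicates gave way to 1 pool.

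The fits used edgeR 4.0.16 (quasi-likelihood, TMM, filterByExpr, Benjamini-Hochberg, threshold 0.05) in R 4.3.3. DESeq2 1.42.0 and limma 3.58.1 served as alternatives. On simulated counts 200 genes were changed, drawn from genes above a minimum mean CPM. For extravascular against intravascular TCs (18655 genes) 4-fold changes were recovered in 98% and 16-fold changes in 100%. For day 1.5 against day 0 ECs (18808 genes) the shares were 26% and 77%. Calls among unchanged genes numbered 6 in TCs and 1 in ECs. These shares do not describe genes near 0 or smaller changes. The main fits held no term for the mouse, which entered only the alternative with a replicate block. By the annotation the intravascular and extravascular libraries came from the same 4 animals. Within an animal their deviations from the gate means correlated at 0.25, 0.07, 0.07 and -0.04. Among EC days the replicate numbers pair no animals. The genes and lists were chosen with earlier results of these data known. Genes named from other lists are Hsf1, Hsf2, up to 4 per list and comparison with the smallest p among those called, and the 5 most correlated genes. The limits given where no read or cell was seen cover counting error only. Each ± is the SE derived from the fit or, where so named, the SD over libraries.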

Additional observations from a re-analysis of the deposited data

Results flagged for a closer look

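Of 40 sets of 4 libraries checked, 2 held a library far from the other 3. For normally spread values the rule flags about 1 in 20 sets by chance, a rate that does not apply to sets mostly at 0. Hsp90aa1 stood at 3857 CPM in intravascular library 1, where the other 3 held 3432 to 3486 CPM, and no single cell there held more than 3.72% of its reads. Hspa1a stood at 0.0713 CPM in latent library 2 from 1 cell, where the other 3 were at 0. The rule flags any set with 1 library above 0, whatever its value.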

How the results depend on the processing

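The calls of Zfand2a, Hsph1, Hsp90ab1 and Hsp90aa1 between latent and extravascular TCs kept direction and side of the threshold under all 10 alternatives and with each of the 8 libraries left out. Their values ranged over the alternatives from 1.55 to 2.17, -0.92 to -0.70, -0.41 to -0.21 and -0.46 to -0.26. Limma on mean log10 values turned Hspb1 (0.022) and Dnajb1 (0.87), and leaving out 1 library moved Hspb1 between -0.72 (lowest) and 0.078 (without extravascular library 4), and without latent library 3 it was 0.058. On that scale Hspa8 lost its call too (-0.12). The cause was not tested. With limma the calls over all genes rose to 1454 (extravascular against intravascular), 5027 (latent against extravascular), 1409 (proliferative against extravascular), 161 (EC day 1.5) and 262 (EC day 3.5 against day 0). With DESeq2 they were 1326, 2699, 690 and, for latent against proliferative, 89, and in ECs 360, 475 and 124. Leaving out the top cell per gene gave 421 for extravascular against intravascular and 407 for proliferative against extravascular TCs, and in ECs 2 and 1. Library totals without scaling factors, chosen after seeing the data, gave 316 and 82 for the same TC comparisons. RLE factors gave 82 and no filter 79 for proliferative against extravascular. All sequenced cells gave 1 on each EC day against day 0, and the mitochondrial limit of 5% gave 1 on day 1.5. Leaving out 1 library gave 8 to 518 calls for extravascular against intravascular (183 with all; 518 without extravascular library 1, and 79, 10, 8, 15, 24, 56 and 8 without extravascular libraries 2 to 4 and intravascular libraries 1 to 4), 1189 to 1465 for latent against extravascular, 6 to 118 for proliferative against extravascular (134 with all; 77, 80 and 6 without extravascular libraries 1, 3 and 4), 0 for latent against proliferative and 0 to 1 in ECs.

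With the mouse as a replicate block, extravascular against intravascular TCs gave 1 call instead of 183, and Hspb8, Cct3, Cct4 and Dnajb11 lost their calls. Latent against proliferative TCs and the 3 EC comparisons, between days that share no animals, had 0 calls with the block as without it, and the other TC comparisons were not fitted with a block. The fit within sort session and the sum with pseudogenes were also chosen after seeing the data. The fit with 4 proliferative replicates was not run, since the annotation names 1 mouse.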
